A study of Bos taurus with 12 samples.

Results

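The cytosolic ribosomal protein genes encode the proteins of the ribosome that translates nuclear mRNAs. They were taken from the deposited gene tables by name: every row called RPL or RPS with a number, an A, L or X form of such a name, RPLP0 to RPLP2, and RPSA. The tables have 27270 rows each, of which 79 matched, and 76 of them reached at least 10 reads in at least 4 of the 12 libraries, 44 for the large (60S) and 32 for the small (40S) subunit. RPL10L had 0 reads in all 12 libraries, which allows up to 3 reads in each. RPL3L had 47 reads and a short row named RPS29 had 68 reads over all libraries, so these 3 rows were not tested.

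The study asked what prostaglandin F2α (PGF2α), the uterine signal that ends the life of the corpus luteum, does to the transcriptome of that gland in cattle. Mixed-breed cows in the mid-luteal phase (day 10 of a synchronised estrous cycle) were injected intramuscularly and the ovary was removed for RNA sequencing of the whole corpus luteum. Control cows received saline, and the other groups received a luteolytic dose of PGF2α and were sampled 4 h or 12 h later, with 4 cows and 4 libraries in each of the 3 groups. The time between saline and surgery is not given in the labels. Each library was 1 cow, and the libraries held 10263310 to 22600213 expected counts (RSEM's estimate of reads per gene). The labelled tissue showed its steroidogenic genes: in control cows STAR, which moves cholesterol into mitochondria, CYP11A1, the side-chain cleavage enzyme, and HSD3B1 had mean levels of 6912, 5530 and 5665 TPM (transcript abundance per length, scaled to a fixed library total).

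A ribosome is built from ribosomal RNA made by RNA polymerases I and III and from a large set of proteins, most of them present once in each particle. The mRNAs of these proteins are short and abundant and begin with a pyrimidine-rich stretch (the terminal oligopyrimidine or TOP motif), through which LARP1 and the kinase mTOR set whether they are translated, stored or degraded. Several of the proteins have other recorded roles, among them RPL5 and RPL11, which bind MDM2 when ribosome assembly is disturbed, and RPLP0, which is often used as a reference gene in PCR.

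In the control corpus luteum the 76 genes were among the most abundant transcripts. Their mean levels in control cows ran from 173 TPM (RPS27L) to 4202 TPM (RPLP1), a 24.3-fold range with a median of 1464 TPM, against a median of 13.9 TPM over all 14481 genes tested. Among the 100 genes with the highest control level 41 were cytosolic ribosomal protein genes. Among the highest were RPLP1 (4202 ± 499 TPM, mean ± SD, n = 4), RPLP0 (3318 ± 342), RPS12 (2883 ± 610) and RPS3A (2868 ± 335). RPS12 and RPS3A differed by less than the SD of either, so their order was not resolved. The 5 lowest were RPS27L (173 ± 10.7 TPM), RPL22 (361 ± 72.1), RPL15 (399 ± 25.7), RPL37A (453 ± 58.1) and RPL27A (479 ± 74.5). RPL22 and RPL15, and likewise RPL37A and RPL27A, differed by less than the larger SD of the pair, while RPS27L stood apart. TPM is a level per length, and RPL15 (mean effective length 2096 bases) and RPL27A (2146 bases) were among the 5 members longer than 1500 bases. The order of the 76 levels was kept after PGF2α, with a Spearman correlation across genes (not independent replicates) of 0.991 between control and 4 h and 0.984 between control and 12 h.

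At 4 h post-PGF2α few differences from control were detected. No cytosolic ribosomal protein gene was higher by the edgeR quasi-likelihood test (adjusted p under 0.05, Benjamini-Hochberg over all genes tested), where 8.65% of all genes tested were higher, and 1 was lower, where 5.59% of all genes were lower. At an unadjusted p under 0.05 the number was again 1, and DESeq2 also called 0 higher and 1 lower. The median log2 fold change of the 76 genes was 0.03, against -0.03 for all genes tested, and single genes lay between -0.25 and 0.21 with a median standard error of 0.13.

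At 12 h post-PGF2α 75 of the 76 genes had risen above control and none had fallen, while 23.6% of all genes tested were higher and 25.3% were lower. The median log2 fold change was 0.72 (1.65-fold), against 0.01 for all genes tested. Of the 60S genes 43 of 44 were higher (median 0.71), and of the 40S genes 32 of 32 were (median 0.75). In 75 of the 76 genes the CPM (counts scaled to library size by TMM) of all 4 cows at 12 h were above those of all 4 controls, a separation that 21% of all genes tested showed in that direction. RPL15 was the gene that overlapped, and its difference did not pass the test.

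The higher levels appeared between the 4 h and 12 h collections. Comparing 12 h directly with 4 h, 75 genes were higher and 0 lower, against 22.5% and 24.3% of all genes tested, with a median log2 fold change of 0.71 (all genes tested 0.02). The comparisons of 4 h and of 12 h with control share the same 4 control cows, so the 4 h and 12 h cows are set side by side in the plot of every gene. Whole tissue was sequenced, so more ribosomal protein mRNA per cell cannot be told apart from more cells of a type rich in it. Levels are relative to the rest of each library, so a loss of other mRNA cannot be told apart from these either.

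**Figure D1:**
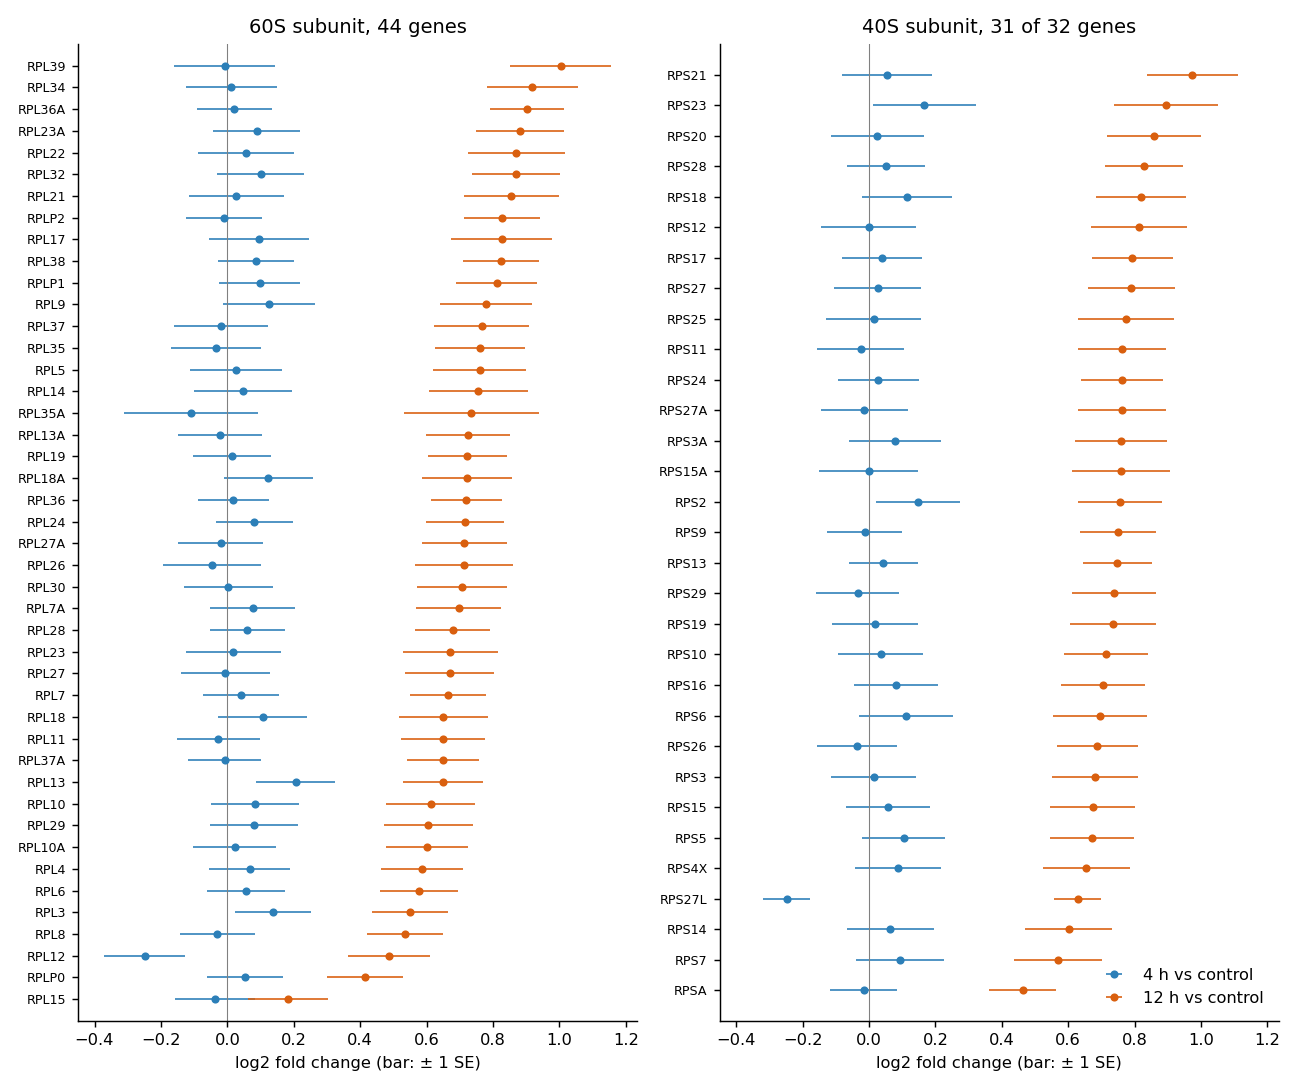
Log2 fold change against control (x axis, bars ± 1 SE, edgeR) of 75 of the 76 cytosolic ribosomal protein genes at 4 h (blue) and 12 h (orange), 60S genes on the left and 40S genes on the right, ordered by the 12 h value. The 4 h values lie between -0.25 and 0.21 and the 12 h values between 0.18 (RPL15) and 1.004 (RPL39).

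Summed over the 76 genes, the TPM share of each library showed the same shift. The share was 13.5%, 12.5%, 9.91% and 10.5% in the 4 control cows (11.6% ± 1.67) and 12.1%, 10.3%, 13.0% and 11.0% in the 4 h cows (11.6% ± 1.23). At 12 h it was 14.5%, 16.6%, 15.9% and 14.6% (15.4% ± 1.03). Control and 4 h cows overlapped throughout, and the lowest 12 h cow was above the highest control. As a share of counts, which gives no extra weight to short transcripts, the 76 genes made up 4.61%, 4.60% and 6.93% of the libraries in the same order of groups.

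Within a group the genes moved as a block from cow to cow. Control cow4285 had 75 of the 76 genes above the mean of its group and cow6464 had 68, while cow7367 had 1 and cow7514 had 3. The median gene deviated from the control mean (log2 CPM) by 0.17 and 0.13 in the first pair and by -0.15 and -0.16 in the second. In the 4 h group cow6455 had 75 genes above its group mean, with a median of 0.31 above the control mean, while cow4291 had 47, cow6456 had 5 and cow5341 had 2. The 12 h cows were closer together, with medians of 0.65 to 0.80 above the control mean and all 76 genes above it in each of the 4 cows. Without cow6455 the 4 h median over the genes changed from 0.03 to -0.06, and no gene was called in either direction at 4 h.

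**Figure D2:**
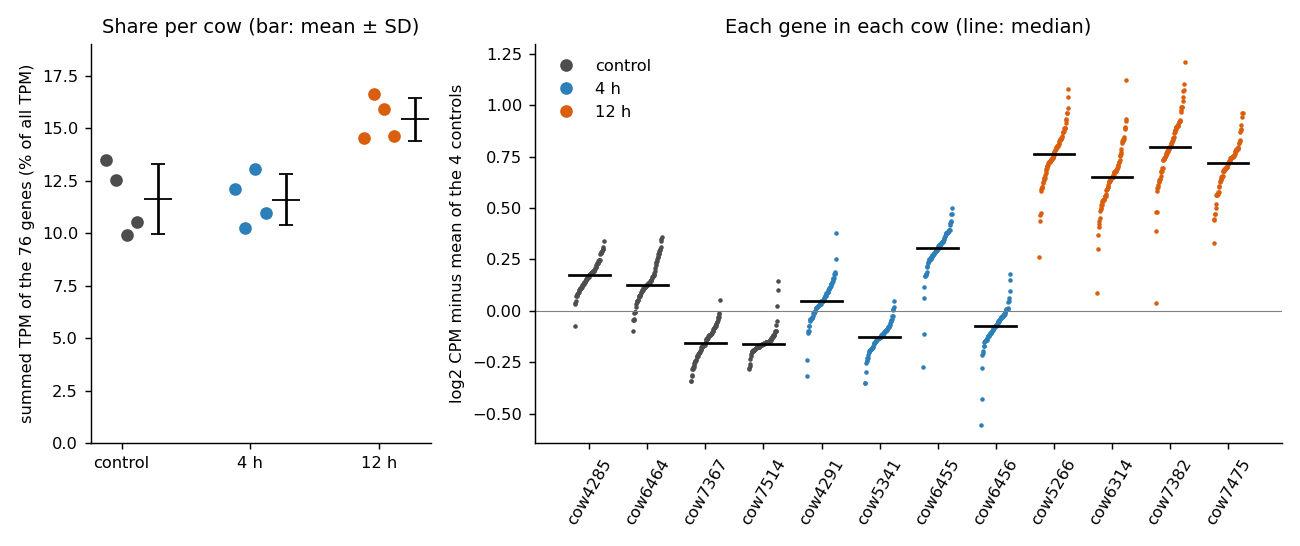
Left, summed TPM of the 76 genes as a percent of all TPM in each cow (points) with the group mean ± SD (bars). Right, log2 CPM of every gene in each cow minus the mean of the 4 controls, with the median as a line: the medians are -0.16 to 0.17 in controls, -0.13 to 0.31 at 4 h and 0.65 to 0.80 at 12 h.

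The largest rises at 12 h came from both subunits. RPL39 (chromosome X, 4150048 to 4153937, build ARS-UCD1.2), a very small protein of the wall of the peptide exit tunnel, had CPM of 373, 441, 276 and 310 in controls, 352, 297, 415 and 329 at 4 h, and 707, 658, 797 and 645 at 12 h. The 12 h cows were all above the other 8, and the rise was 1.004 on the log2 scale (SE 0.15, adjusted p = 2.34e-04). RPS21 (chromosome 13, 54866473 to 54867802), a 40S protein, had CPM of 211, 190, 141 and 152 in controls, 173, 163, 213 and 171 at 4 h, and 361, 317, 367 and 315 at 12 h. Its rise was 0.97 (SE 0.14, adjusted p = 1.37e-04), again with no overlap. RPL34 (0.92), RPL36A (0.90), RPS23 (0.89), which sits at the decoding centre, and RPL23A (0.88), which lies at the exit of the tunnel and is contacted by the signal recognition particle, followed. Their mean levels went from 774 to 1153 TPM for RPL34, from 801 to 1262 for RPL36A, from 1230 to 1858 for RPS23 and from 1206 to 1795 for RPL23A. These TPM means rose by less than the log2 fold changes, which are of counts. The standard errors of the log2 fold changes were 0.11 to 0.16, and the differences among these genes were not tested. Their log2 fold changes at 4 h lay between -0.01 and 0.17 and none passed the test.

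The proteins of the stalk, which recruits the elongation factors, lay at different places in the order of rises. RPLP0 (chromosome 17, 62557757 to 62561808), the anchor of the stalk, had CPM of 2209, 2190, 1906 and 1883 in controls, 2276, 1870, 2295 and 2052 at 4 h, and 2838, 2516, 2672 and 2883 at 12 h. The groups at 12 h and control did not overlap, but the rise of 0.41 (SE 0.11, adjusted p = 0.00997) was the smallest among the 75 genes called. RPLP1 (chromosome 10, 16343826 to 16345977), carried as a dimer with RPLP2 on RPLP0, had CPM of 1121, 1199, 952 and 991 in controls and 1853, 1762, 1803 and 2065 at 12 h, a rise of 0.81 (SE 0.12, adjusted p = 2.10e-04). RPLP2 (chromosome 29, 50556688 to 50559203) rose by 0.83 in counts (SE 0.11, adjusted p = 1.21e-04). Its mean TPM went from 824 ± 80.4 to 1174 ± 51.4, a smaller rise than in counts. The reads of RPLP1 per read of RPLP0 were 0.500 to 0.547 in the controls, 0.514 to 0.578 at 4 h and 0.653 to 0.716 at 12 h. RPLP2 per RPLP0 went from 0.173 to 0.183 in controls and 0.163 to 0.191 at 4 h to between 0.234 and 0.245 at 12 h. These ratios were looked at after the fold changes were known and were not tested. RPL12, at the base of the stalk, was also among the smaller rises (0.49, SE 0.12, adjusted p = 0.00595), and its 4 h value was -0.25 (adjusted p = 0.20). Its call at 12 h was lost with a smooth trend in transcript length removed from each library (0.29, adjusted p = 0.0672) and with limma, a linear model fit, on log2(TPM + 1) (0.18, adjusted p = 0.286).

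The other small rises at 12 h were RPSA (0.46), a 40S protein also known as the laminin receptor, RPL8 (0.53) and RPL3 (0.55), which lie near the peptidyl transferase centre, and RPS7 (0.57). By limma on log2(TPM + 1) these 4 stood at 0.17, 0.23, 0.24 and 0.27 and were not called. RPSA had CPM of 1305, 1124, 1049 and 1051 in controls and 1559, 1540, 1575 and 1565 at 12 h, so its 12 h cows lay close together and above every control. Between 12 h and 4 h the smallest called rises were RPLP0 (0.36), RPL3 (0.41), RPL13 (0.44), RPS7 (0.47), RPSA (0.48) and RPL4 (0.52), and the largest were RPL39 (1.011), RPS21 (0.92), RPL34 (0.91), RPL36A (0.88), RPS27L (0.88) and RPL35A (0.84). The SD of the 76 rises at 12 h was 0.13.

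RPL15 (chromosome 27, 42051425 to 42055369), a 60S core protein, was the exception. It had CPM of 519, 535, 527 and 456 in controls, 515, 413, 590 and 468 at 4 h, and 609, 540, 522 and 640 at 12 h. The 12 h cows overlapped the controls, and the log2 fold change of 0.18 (SE 0.12, adjusted p = 0.23) did not pass the test. Its TPM went from 399 ± 25.7 to 364 ± 31.6. The expected counts of RPL15 were not whole numbers in any library, so some of its reads were shared out among rows or places.

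RPS27L (chromosome 10, 46889250 to 46892617), a paralog of RPS27 known as a p53 target, was the 1 gene called at 4 h. It had CPM of 34.2, 35.7, 35.7 and 38.6 in controls, 28.9, 31.8, 29.8 and 31.0 at 4 h, and 54.0, 54.7, 57.6 and 56.8 at 12 h. The 4 h cows were all below, and the 12 h cows all above, the controls. The fall at 4 h was -0.25 (SE 0.07, adjusted p = 0.0339), and the rise was 0.63 at 12 h against control (SE 0.07, adjusted p = 3.04e-05) and 0.88 against 4 h (SE 0.07, adjusted p = 1.03e-05). The fall at 4 h lost its call in 15 alternative analyses and kept it in 8, lower in each. RPS27 itself stood at 0.03 at 4 h (adjusted p = 0.92) and rose by 0.79 at 12 h (SE 0.13, adjusted p = 4.28e-04).

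Members with recorded roles beyond the ribosome rose with the rest at 12 h. RPL5 and RPL11, which join the 5S rRNA and can bind MDM2, rose by 0.76 (SE 0.14) and 0.65 (SE 0.13). RPL5 had CPM of 874, 946, 714 and 708 in controls, 804, 722, 1026 and 747 at 4 h, and 1341, 1252, 1478 and 1417 at 12 h, with every 12 h cow above the other 8. RPS6, the substrate of S6 kinase, had CPM of 988, 946, 774 and 693 in controls, 957, 782, 1106 and 825 at 4 h, and 1413, 1332, 1458 and 1302 at 12 h, a rise of 0.70 (SE 0.14, adjusted p = 0.0016). RPS27A, made as a fusion with ubiquitin, rose by 0.76 (SE 0.13). RPL10, which joins the 60S particle late, rose by 0.61 (SE 0.13) and RPS4X by 0.65 (SE 0.13), both on chromosome X in this build. RPL22, a 60S protein that cells can do without, rose by 0.87 (SE 0.15, adjusted p = 4.35e-04). By limma on log2(TPM + 1) RPL22, RPL10 and RPL11 stood at 0.34, 0.31 and 0.30 and were not called (adjusted p = 0.0569, 0.0761 and 0.0623). The abundant small-subunit genes RPS12 and RPS3A rose by 0.81 and 0.76.

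The genes share short transcripts, and across all genes tested the shorter ones had the higher fold changes at 12 h. The mean effective length (transcript length less the part in which no fragment can start) had a median of 586 bases over the 76 genes and 2117 bases over all genes tested. Among the 2318 other genes between 330 and 1164 bases, the 10th and 90th percentiles of the ribosomal protein genes, 31.4% were higher at 12 h, and their median log2 fold change was 0.22 (0.11 in the wider band that spans all 76 genes, -0.08 at 4 h in the narrower band). Limited to the 44 of them with a mean level of at least 805 TPM, 63.6% were higher and 1 was lower, with a median of 0.59. These 44 include FAU and TPT1, and without the mitochondrially encoded ones 24 of 37 were higher (median 0.60). The level here is a mean over all 3 groups, so a gene could enter through its 12 h level. With the level taken in control cows alone (at least 705 TPM, chosen after the values were seen), 60.4% of 48 genes were higher and 1 was lower, with a median of 0.52. The 76 genes were not themselves held to these limits of length and level, and RPL15, which has the lowest value, lies outside both. Of all 76 genes 75 were higher, beside 29 of the 48. Their log2 fold changes were 0.18 to 1.004 (SD 0.13), beside -1.74 to 1.54 (SD 0.51). No test of the difference was made, because the genes are not independent replicates.

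Among the 76 genes themselves the longer ones rose less at 12 h. The Spearman correlation of effective length and log2 fold change was -0.43 over the 76 genes and -0.21 over all genes tested, given as descriptions across genes that share their libraries. The 38 shorter genes had a median rise of 0.76 and the 38 longer ones 0.70. With a smooth trend in length taken out of each library, 74 genes were still higher at 12 h, where 24% of all genes tested were, and the median was 0.54 (all genes 0.04). Averaged over the transcripts of a library by their TPM, length was 1628 to 1728 bases in the control libraries, 1622 to 1746 at 4 h and 1413 to 1577 at 12 h. The 76 genes are part of this average, so their own rise lowers it. The part of this length in the result was not tested.

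**Figure D3:**
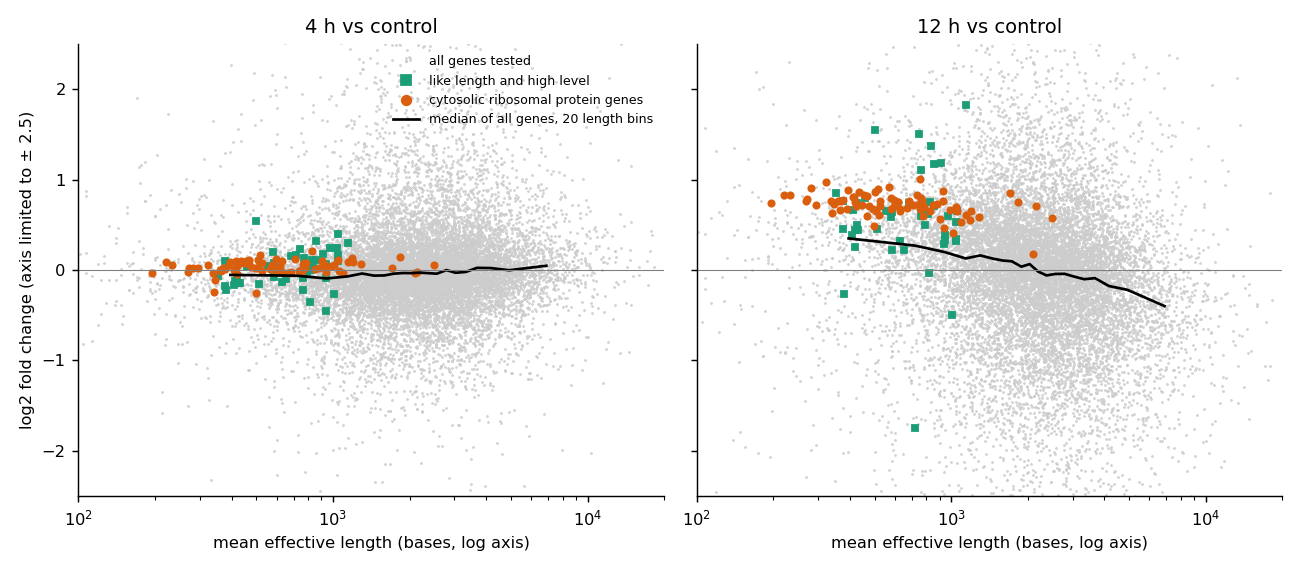
Log2 fold change at 4 h (left) and 12 h (right) against mean effective length in bases (log axis) for all 14481 genes tested (grey), the 76 cytosolic ribosomal protein genes (orange) and the 44 other genes of like length and level (green), with the median of all genes in bins of length as a black line. At 12 h the line falls with length and the ribosomal protein genes lie above it, in a band from 0.18 to 1.004.

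On the TPM scale the rise was smaller in absolute terms. With limma on log2(TPM + 1), 56 genes were higher at 12 h, where 10.4% of all genes tested were, and the median was 0.41. TPM divides by a sum that moves with the rest of the library, and on that scale the median of all genes tested was -0.25 in place of 0.01. All genes split into 10.4% higher and 38.9% lower there. Relative to all genes the median rise was 0.66 on the TPM scale and 0.71 on the TMM scale. The 44 other genes of like length and level had 13 higher and 4 lower with a median of 0.25 on the TPM scale, and the median of the 2318 genes of like length turned to -0.08, with 351 higher and 608 lower. RPLP0 shows the difference: its TPM was 3318 ± 342 in controls and 3557 ± 164 at 12 h, and the difference of 0.10 by limma did not pass the test.

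For some genes TPM also changed through the transcript length that RSEM assigned. RSEM gives each gene the mean length of its transcripts weighted by their estimated abundance, so a shift between annotated isoforms changes the length. Of the 32 ribosomal protein genes with more than 1 transcript, 7 had a length at 12 h above all 4 controls, against 12.2% of all tested genes with more than 1 transcript, and 6 of the 7 by more than 1%. Another 6 had a length at 12 h below all 4 controls, against 8.42% of those genes, so lengths moved in both directions. The shortening was smaller, with RPL36A at -3.17% and RPS24 at -2.13%. RPL30, RPS19 and RPL22, which became longer and were chosen here after their values were seen, changed most. RPL30 had a mean length of 648, 642, 631 and 624 bases in controls, 637, 626, 693 and 665 at 4 h, and 770, 808, 775 and 800 at 12 h. RPS19 had 951, 900, 890 and 885 bases in controls, 903, 884, 1028 and 933 at 4 h, and 1094, 1094, 1092 and 1096 at 12 h. RPL22 had 971 to 975 bases in controls, 970 to 995 at 4 h and 1116 to 1143 at 12 h. The 12 h cows stood apart from the other 8 in all 3 genes, and the longest of the 4 h cows was cow6455 each time. RPL30 rose by 0.71 in counts (SE 0.13, adjusted p = 0.00103) while its TPM was 1157 ± 188 in controls and 1192 ± 163 at 12 h. RPS19 rose by 0.74 in counts, with 1065 ± 150 and 1165 ± 116 TPM.

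**Figure D4:**
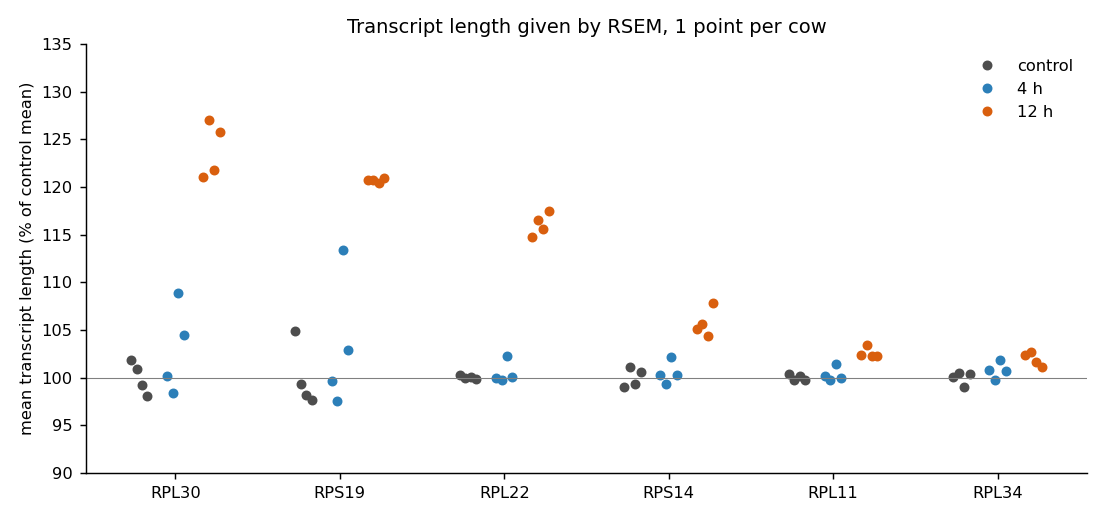
Mean transcript length given by RSEM for the 6 cytosolic ribosomal protein genes whose 12 h cows were all longer than all controls by a mean of more than 1%, as a percent of the control mean (y axis, not starting at 0), 1 point per cow. At 12 h RPL30, RPS19 and RPL22 were 23.8%, 20.6% and 16.1% longer, and cow6455 is the highest 4 h point of each.

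Many of these genes have near-identical copies elsewhere in the genome, and 35 of the 76 had expected counts that were not whole in any library, against 8.56% of all genes tested. For such genes the reads were shared out by estimate and the values are less certain. The 38 genes with mostly whole counts (in at least 6 libraries) were all higher at 12 h, with a median of 0.72, and 37 of the other 38 were, with a median of 0.73. RPS29 has more than 1 row of the same name and place, and the row tested rose by 0.74 (SE 0.13).

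Ribosome genes that the name rule left out moved the same way in the main fit. Of 8 tested (fusions with ubiquitin or a ubiquitin-like protein, RACK1 and paralogs) all 8 were higher at 12 h, with a median of 0.60, and none was called at 4 h. By limma on log2(TPM + 1) RACK1 (0.11), RPL22L1 (0.25), RPS4Y1 (-0.04) and RPL7L1 (-0.08) were not called at 12 h. RPS4Y1 and RPL7L1 also lost the call with the length trend removed (adjusted p = 0.148 and 0.161). Among the smallest p values were those of RPL36AL (0.66, adjusted p = 5.26e-05), RPL26L1 (0.77) and FAU (0.80), a fusion with a 40S protein. Genes named for the mitochondrial ribosome (MRPL or MRPS with a number), which translates mitochondrial mRNAs and is assembled separately, were called in both directions at 12 h against control. They were taken by name, which does not show that each protein is part of that ribosome. Of 76 tested, 0 rose and 9 fell at 4 h (11.8%, against 5.59% of all genes tested, median -0.19). At 12 h against control 18 rose (23.7%, against 23.6% of all genes) and 12 fell (15.8%, against 25.3%, median 0.16, turning to -0.15 with 4 higher and 33 lower by limma on TPM), among them MRPS27 (-0.69), MRPL15 (-0.82), MRPL52 (0.74) and MRPS36 (-0.66). Comparing 12 h directly with 4 h in the main fit, 36 rose (47.4%, against 22.5% of all genes) and 2 fell (2.63%, against 24.3%), with a median of 0.28.

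The factors that work with the ribosome were split. Of 12 elongation and nascent chain genes 7 rose and 2 fell at 12 h, 58.3% and 16.7% against the 23.6% and 25.3% of all genes tested. BTF3 (0.71) and NACA (0.72), which form the complex that shields nascent chains, and TPT1 (0.76), itself a TOP mRNA, rose, while EEF2K, the kinase that inhibits elongation factor EEF2, fell by 1.04 (adjusted p = 2.06e-05) after a fall of 0.42 at 4 h (adjusted p = 0.0213). Of 37 initiation genes 15 rose (40.5%) and 3 fell (8.11%), with PABPC1 (0.66), the poly(A) binding protein, and EIF5 (0.60) higher, and the scaffolds EIF4G3 (-0.96) and EIF4G1 (-0.78) lower. Elongation factor EEF1A1 (0.23, adjusted p = 0.158) and EEF2 (0.14, adjusted p = 0.328), both TOP mRNAs named here after their values were seen, did not pass the test.

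Genes for making ribosomes were called in both directions on the TMM scale, at shares near or below those of all genes tested (23.6% higher and 25.3% lower at 12 h). Of 15 genes of RNA polymerase I and its factors 4 rose (26.7%) and 3 fell (20%) at 12 h. POLR1E, a subunit of the polymerase, fell from 212 to 71.4 TPM at 4 h and 53.3 TPM at 12 h. In counts its fall was 1.54 (adjusted p = 5.38e-04) and 1.67 (adjusted p = 5.59e-05) on the log2 scale. POLR1B fell by 1.14 and POLR1A by 0.57 at 12 h while TAF1D rose by 0.62. Of 51 assembly factors 10 rose (19.6%) and 9 fell (17.6%), with RIOK1 (-1.30), NIP7 (-1.94), NOLC1 (-0.66) and DDX21 (-0.71) at the smallest p values. The regulators of TOP mRNAs and the mTOR pathway, listed with MYC and the p53 and MDM2 pair, mostly fell: 14 of 26 (53.8%) were lower and 1 higher at 12 h (median -0.27). LARP1, which binds the TOP motif, fell from 180 to 97.7 TPM at 4 h and to 39.6 TPM at 12 h. Its log2 fold changes in counts were -0.85 (adjusted p = 0.00153) and -1.89 (adjusted p = 3.77e-06). MTOR fell by 1.31, its partner RPTOR by 1.46 and LARP4B by 1.05 at 12 h. These are long transcripts, and with the length trend taken out LARP1, RPTOR, MTOR and LARP4B stood at -1.53, -1.20, -0.92 and -0.91. The list mixes genes that promote and genes that restrain mTOR. In the main fit DEPTOR (-1.73) and DDIT4 (-1.21), which restrain it, were also lower. The 1 gene called higher was RHEB (0.83), which activates mTOR. DEPTOR, DDIT4 and RHEB are named here after their values were seen. By limma on log2(TPM + 1) the calls at 12 h lay further to the lower side, with 4 higher and 3 lower for elongation, 8 and 13 for initiation, 0 and 6 for RNA polymerase I, 2 and 22 for assembly and 1 and 15 for the TOP and mTOR list.

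**Figure D5:**
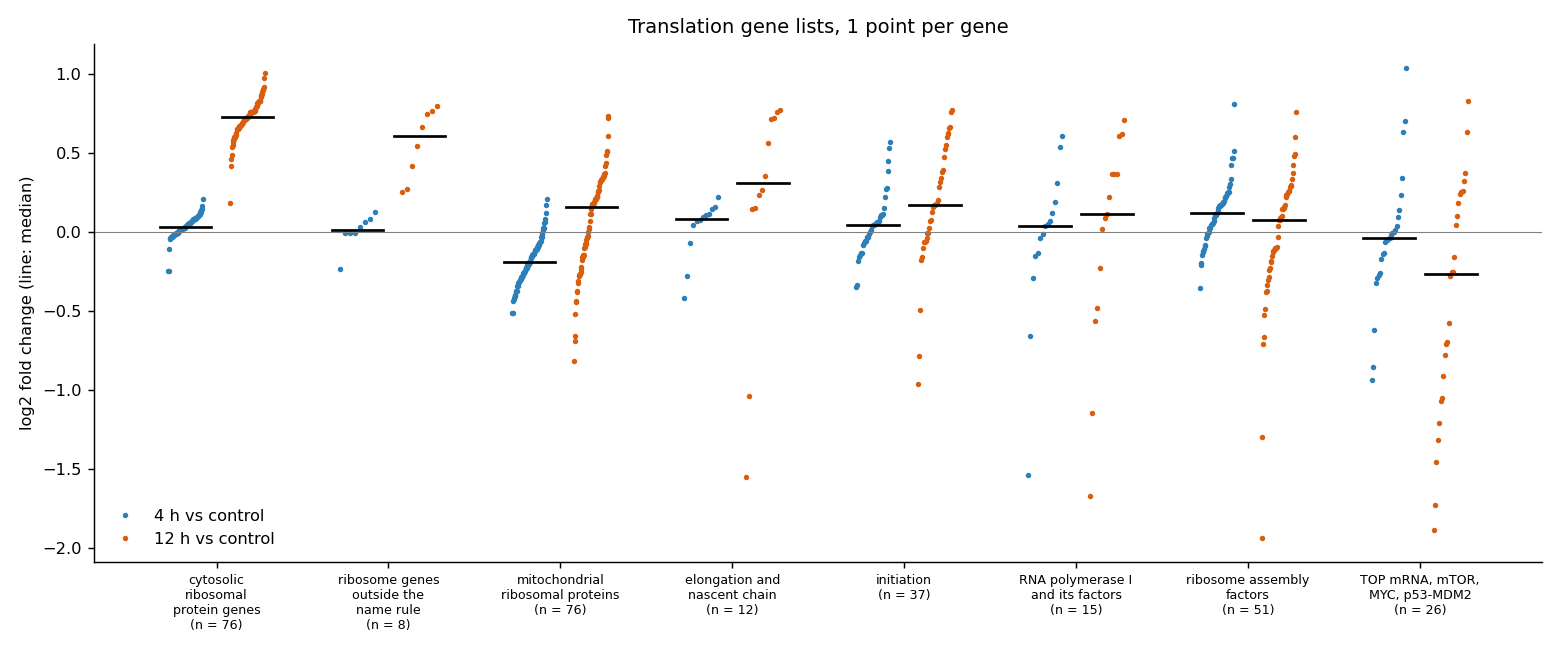
Log2 fold change against control at 4 h (blue) and 12 h (orange) of each gene (point) of 8 lists, with list medians as lines. The cytosolic ribosomal protein genes and the 8 ribosome genes outside the name rule have 12 h medians of 0.72 and 0.60, the other lists lie between -0.27 and 0.31 and hold genes in both directions.

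Cell type markers were also called at 4 h and 12 h. Over all genes tested 8.65% were higher and 5.59% lower at 4 h, and 23.6% and 25.3% at 12 h. At 4 h the alarmin S100A9 of neutrophils (2.73, adjusted p = 0.00505), CD14 of monocytes (0.90) and PECAM1 of endothelium (0.96) were higher, and the PGF2α receptor PTGFR (-1.17, adjusted p = 0.00723), HSD3B1 (-0.78) and KDR (-0.86) were lower, named here after their values were seen. By list at 4 h, 1 of 12 macrophage (8.33%) and 1 of 8 neutrophil markers (12.5%) were higher, and 2 of 11 steroidogenic markers (18.2%) were lower. Endothelial markers had 2 of 12 higher and 2 lower (16.7% each), and 2 of 10 for pericytes and smooth muscle (20%) were higher. Each of these shares rests on 1 or 2 genes. Of 12 T and NK markers 1 was lower at 4 h (median -1.01), and 9 had an unadjusted p under 0.05. At 12 h 9 of 12 macrophage and monocyte markers were higher and none lower (median 1.15), with a summed level of 205 to 562 TPM in controls, 250 to 480 at 4 h and 501 to 803 at 12 h. Of 11 markers of luteal steroidogenic cells 8 were lower and none higher (median -0.85), with sums of 31590 to 48747 TPM in controls, 29813 to 34736 at 4 h and 14996 to 27444 at 12 h. Higher at 12 h were also 6 of 8 neutrophil markers (summed 23.8 to 46.3 TPM in controls, 43.0 to 149 at 4 h and 100 to 267 at 12 h). So were 2 of 5 for B lymphocytes and plasma cells, 4 of 10 for fibroblasts (0 by limma on TPM), and the 1 erythrocyte gene tested. Of 12 T and NK markers 1 was higher at 12 h (8.33%) and none lower, while the list median was -0.57. Endothelial markers (3 of 12 or 25% higher, 1 lower) and those of pericytes and smooth muscle (2 of 10 or 20% higher, 1 lower) were mixed. Their shares called higher were near the 23.6% of all genes tested. CD177 was at 0 in all cows at 4 h and 12 h, and SLC4A1 at 12 h. The share of counts from mitochondrially encoded genes was 6.77% to 10.0% in controls, 7.78% to 10.2% at 4 h and 7.22% to 14.1% at 12 h. The part of these shifts in the rise of the ribosomal protein genes was not tested.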

How the data were processed

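RNA of 12 whole corpora lutea, 1 per cow, was sequenced. The authors deposited 1 table per cow with expected counts, TPM and FPKM per gene and the gene's length and effective length. The submitters' processing notes name STAR 2.5, RSEM 1.3 and ARS-UCD1.2. Expected counts can be fractions of a read, TPM is scaled to 1 total per library, and FPKM was not used. Library totals were 10263310 to 22600213, so counting error was small for these genes and cow to cow spread set the precision.

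Expected counts were rounded, genes with at least 10 in at least 4 libraries were kept, TMM factors scaled the libraries, and 1 model covered all 3 groups (edgeR 4.0.16 quasi-likelihood test in R 4.3.3, Benjamini-Hochberg over all 14481 genes, threshold 0.05). Every adjusted p is from this fit unless another tool is named. On simulated counts for 12 h and control over 14481 genes, it recovered 64% of 100 genes changed by 1 and 96% of 100 changed by 2 on the log2 scale. The simulation gave every gene the same dispersion and changed no other genes, so these rates need not hold for the ribosomal protein genes. Alternatives were DESeq2 1.42.0, RLE scaling, TMM factors from other genes, no count minimum or 50, the compared groups alone, limma 3.58.1 on log2(TPM + 1) and log2(TPM + 0.1), no mitochondrially encoded genes, a length trend (natural spline, 5 degrees of freedom) removed from each library, and each cow left out. The members and lists were chosen with earlier results of these data known. Genes named are the 6 highest and 6 lowest called log2 fold changes of each comparison, the 5 highest and 5 lowest control levels, those with set roles, and the 4 smallest p values at 12 h of each companion list. Results for a few genes are not reported here. No member's sequence is printed, and the gene table at hand is of another build and was not used.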

Additional observations from a re-analysis of the deposited data

Results flagged for a closer look

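The effects at 12 h and 4 h differed for 75 of the 76 cytosolic ribosomal protein genes, all higher at 12 h in the direct edgeR comparison. In 108 groups of 4 cows checked for a cow far from the other 3, 5 stood out, and chance gives about 1 in 20. At 4 h cow6455 stood apart for RPL36A, with a CPM of 170 against 129 to 134 in the others, and for the RSEM transcript length of RPL22, 995 bases against 970 to 973. At 12 h cow7382 stood apart for RPL12 (CPM of 639 against 524 to 538), RPS27 (638 against 573 to 581) and RPS27A (1219 against 1079 to 1092). No explanation of these values was tested.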

How the results depend on the processing

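The median rise at 12 h kept its direction in every alternative, with 56 to 75 of the 76 genes called against control and 55 to 76 against 4 h, and no gene called lower. RPL15 turned to -0.13 against control by limma on log2(TPM + 1) and was not called (adjusted p = 0.329). Limited to the 38 genes with mostly whole counts, a choice made after seeing the data, 38 were higher. The median rise at 12 h against control moved from 0.72 to 0.54 with the length trend removed and to 0.41 with limma on log2(TPM + 1) or log2(TPM + 0.1), and against 4 h from 0.71 to 0.51, and to 0.43 with both limma fits. In these limma fits the median of all genes moved too, and the cause was not tested. With each cow left out in turn it ranged from 0.68 to 0.82 against control and from 0.65 to 0.80 against 4 h, and RPL15 was called higher against 4 h only without cow6455, by 0.31, or without cow6455 and cow6314, by 0.32.

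The 1 gene called lower at 4 h, RPS27L, became 0 with RLE scaling, the length trend removed, limma on either scale, no count minimum, the compared groups alone, and without cow6455 and cow6314, and the count was 0 to 1 with a cow left out. Its log2 fold change stayed between -0.28 and -0.20 in the alternatives that lost the call. The summed share of TPM of 11.6%, 11.6% and 15.4% (control, 4 h, 12 h) was 4.61%, 4.60% and 6.93% as a share of counts, by construction, and 13.9%, 14.0% and 19.1% without mitochondrially encoded genes. No paired analysis was possible because each cow gave 1 library and the labels number no replicates across groups. With 4 cows a group and a median standard error of 0.13 over the 76 genes, small changes at 4 h were not detectable.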
